A study of Mus musculus with 13 samples.

Results

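The myeloid lineage transcription factors described here were 9 genes: Cebpa, Cebpb, Cebpd, Cebpe, Spi1, Gfi1, Zeb2, Runx1 and Myb. The members were found as probe sets listed with exactly 1 of these genes, which gave 82 of 229581 probe sets and 8 of 16277 genes. Spi1 was listed under its older symbol Sfpi1. Cebpd had no probe set of its own in the probe-to-gene table and was not analysed here. The other 8 genes had 4 probe sets (Cebpa and Cebpe), 6 (Cebpb), 7 (Spi1), 12 (Runx1), 13 (Zeb2), 17 (Gfi1) and 19 (Myb), and all 8 passed the filter on low values.

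The RNA came from flow-sorted bone marrow cells of single mice of the strain labelled Bl/6 Taconic, 1 mouse per array, on the Affymetrix Mouse Exon 1.0 ST array. The mutant mice, labelled mCG-PR N17, express the leukaemia fusion PML-RARA from the murine cathepsin G locus, called Ctg in the labels and Ctsg in current nomenclature, and the controls were wild-type (WT) littermates. The 5 groups were mCG-PR SLAM cells of 7 weeks (n = 2), WT SLAM cells of 6 weeks (n = 2), mCG-PR KLS cells of 13 weeks (n = 2), mCG-PR KLS cells of 6 weeks (n = 3) and WT KLS cells of 12 or 13 weeks (n = 4). KLS names lineage-negative, Kit- and Sca-1-positive bone marrow, which holds stem cells and multipotent progenitors, and SLAM names stem cells selected through receptors of that family. The sources used here do not give the gates. Cathepsin G is made mainly by early granulocyte precursors, so the locus that drives the fusion is a myeloid one. No WT KLS mouse was 6 weeks old, so genotype and age cannot be told apart in the comparison of 6-week mCG-PR KLS cells with WT KLS cells. In the SLAM comparison the groups differed by 1 week of age as well as by genotype.

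The factors act in a chain along the myeloid branch of blood formation. Runx1 and Myb act in stem cells and early progenitors, PU.1 (the protein of Spi1) opens the myeloid and lymphoid programmes, C/EBP-alpha starts granulocyte and monocyte production, and C/EBP-epsilon and Gfi1 act in later granulocyte maturation. Zeb2 is a zinc-finger repressor that binds E-boxes and is required in mice for normal stem cell differentiation and for dendritic cell and monocyte development. PML-RARA is the fusion of acute promyelocytic leukaemia, in which granulocyte maturation stops at the promyelocyte.

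Zeb2 was the 1 member that passed a test in any comparison, and the promoter at its most upstream start is shown to give the sequence beside that result. The 300 bases lie at chr2:45117393-45117692 on the minus strand of GRCm38.p6, from RefSeq, and are printed 5′ to 3′. The capitals mark a match to the C/EBP half-palindrome TTGCNNAA (bases 30 to 37) and a match to the PU.1 purine box GAGGAA (bases 133 to 138), which do not overlap.
Zeb2: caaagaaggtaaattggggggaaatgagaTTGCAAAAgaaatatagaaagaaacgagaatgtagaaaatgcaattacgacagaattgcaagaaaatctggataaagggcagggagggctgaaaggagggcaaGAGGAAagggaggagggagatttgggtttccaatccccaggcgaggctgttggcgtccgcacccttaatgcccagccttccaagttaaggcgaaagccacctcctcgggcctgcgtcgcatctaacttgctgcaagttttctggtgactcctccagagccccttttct

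On both strands of all 32817 promoter windows of this length, TTGCNNAA was found in 10.8% and GAGGAA in 28.3%. The RUNX motif TGTGGT (16.8% of windows), the MYB motif AACNGT (26.1%), the retinoid half-site AGGTCA (16.3%) and the Gfi1 core AAATCA (14.0%) had no match in this window. RefSeq windows were at hand for 6 of the members, with 11 starts in all. The other 3 Zeb2 starts each had 1 match to GAGGAA and 1 to AACNGT. The windows of Cebpa, Cebpb and Myb matched none of the 6 motifs. The more upstream Runx1 window held 2 matches to TGTGGT and 4 to AACNGT, and 1 of the 2 Gfi1 windows held 1 to TTGCNNAA and 1 to AACNGT. A match of letters is a description of the window and not a binding site.

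Facts of the whole series bear on these genes as follows. The arrays were close in overall brightness, with median intensities from 98.6 to 115.3. Cd48, a receptor absent from SLAM-sorted stem cells, averaged log2 4.25 in mCG-PR SLAM, 5.13 in WT SLAM, 9.22 in mCG-PR KLS and 8.83 in WT KLS cells, as the sort labels say. Kit, which both populations carry, averaged log2 10.40 in mCG-PR SLAM, 9.90 in WT SLAM, 9.88 in mCG-PR KLS and 10.14 in WT KLS cells. The mean log2 level of 2 Y-linked genes was 4.23 and 4.28 in the mCG-PR SLAM mice and 4.53 in replicate 3 of 6-week mCG-PR KLS, against 7.67 to 8.48 on the other 10 arrays. All WT arrays were thus of the high kind, and in SLAM cells genotype and Y-linked level cannot be told apart. The pooled SD between replicates had a median over all genes of 0.33 log2 in SLAM and 0.22 in KLS cells. Every value below is limited in precision by the 2 to 4 arrays of a group.

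**Figure D1:**
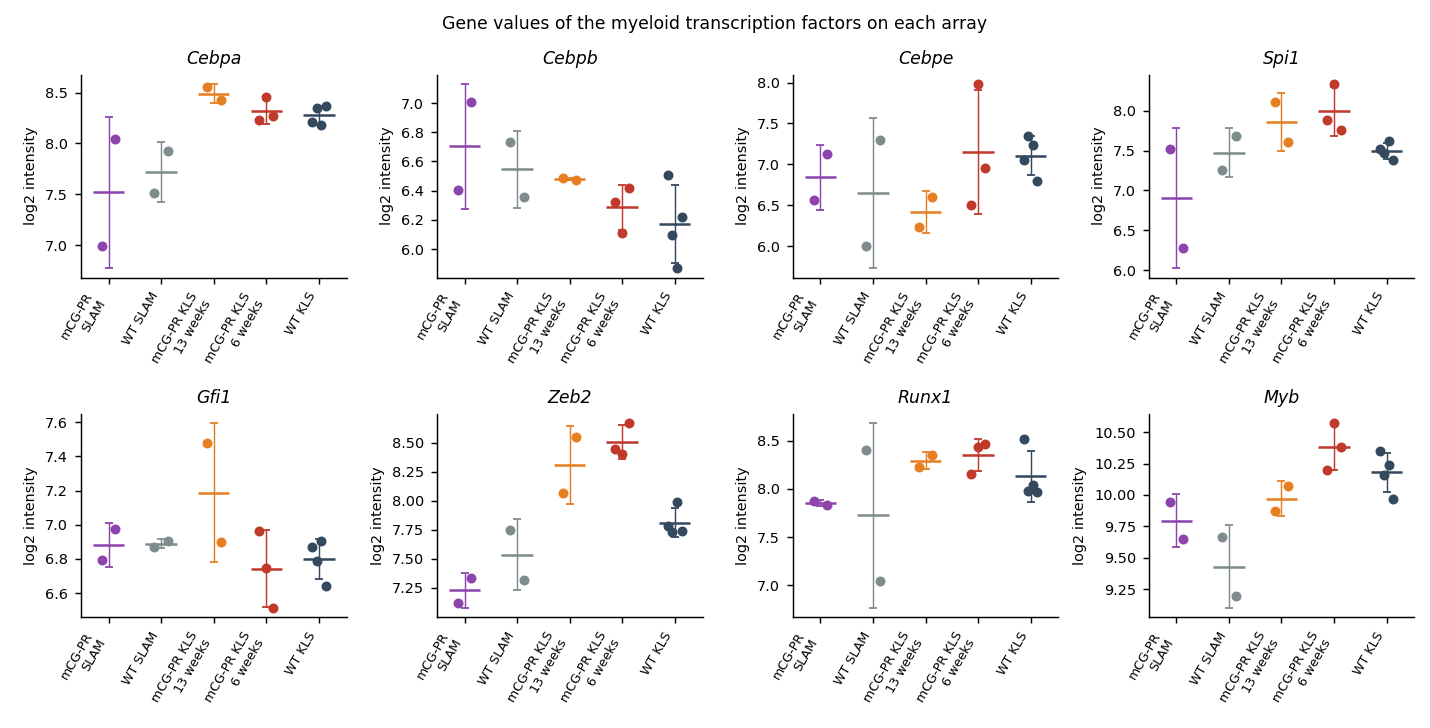
Each panel plots 1 gene, with log2 intensity on the vertical axis and the 5 groups on the horizontal axis. Points are arrays, thick lines are group means and thin bars are ± 1 SD. The 5 mCG-PR KLS arrays of Zeb2 all lie above the 4 WT KLS arrays, and both mCG-PR SLAM arrays of Zeb2 lie below every KLS array.

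The first question was whether these factors differ between mutant and wild-type KLS cells. With both ages together, none of the 8 members passed limma at an adjusted p of 0.05, as 0.0851% of all 10575 tested genes did (9 genes). At an unadjusted p of 0.05, 2 of the 8 members lay beyond the threshold, against 12.1% of all genes. Of the members, 7 had a positive difference and their median was 0.15 log2, beside a median of 0.09 over all tested genes, of which 68.0% were positive.

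Zeb2 had the largest difference of the members. Its log2 values were 8.07 and 8.54 in mCG-PR KLS cells of 13 weeks and 8.40, 8.44 and 8.67 in those of 6 weeks, against 7.73, 7.74, 7.78 and 7.99 in WT KLS cells. The groups did not overlap, which held in this direction for 3.55% of all tested genes. The difference was 0.61 ± 0.14 log2 (SE; 95% interval 0.31 to 0.92), or 1.53-fold, with an unadjusted p of 0.000573 and a Benjamini-Hochberg adjusted p of 0.120 in limma. Relative to the median of all genes it was 0.53 log2. All 13 Zeb2 probe sets were higher on average in mCG-PR KLS cells, by 0.14 to 0.73 log2, and 2 of them had no overlap between the groups. Here and below, the probe sets of a gene were read on the same arrays, and no share over all probe sets is given. The gene value is the median probe set on each array, which is why its difference can exceed the median of the single differences, 0.42 log2.

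Spi1, which encodes PU.1, had the next largest difference. Its log2 values were 7.60 and 8.11 in mCG-PR KLS cells of 13 weeks and 7.75, 7.88 and 8.34 in those of 6 weeks, against 7.38, 7.47, 7.52 and 7.61 in WT KLS cells. Only the lowest mCG-PR array fell within the WT range. The difference was 0.44 ± 0.15 log2 (SE; 95% interval 0.12 to 0.77), with an unadjusted p of 0.0115 and an adjusted p of 0.275 in limma. All 7 Spi1 probe sets were higher on average in mCG-PR KLS cells, by 0.11 to 0.48 log2, and none of them was free of overlap.

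Summed markers of dendritic, mast and erythroid cells did not overlap between mCG-PR and WT KLS arrays. The summed intensity of the 6 markers on the dendritic list, all measured, was 2427 to 3361 on the mCG-PR KLS arrays, against 1640 to 1927 on the WT KLS arrays. Siglech, a receptor of plasmacytoid dendritic cells, averaged log2 7.57 in mCG-PR KLS and 6.21 in WT KLS cells, and Itgax averaged 6.36 in mCG-PR KLS and 5.78 in WT KLS cells, the WT level being below the filter of log2 6.00. On the mast cell and basophil list, all 4 markers measured, the sum was 348 to 1735 in mCG-PR KLS against 206 to 339 in WT KLS cells. On the erythroid list (4 of 7 measured) the sum was lower, 1984 to 2466 in mCG-PR KLS against 3012 to 4426 in WT KLS cells. Hbb-b1, a beta-globin gene on that list, averaged log2 9.95 in mCG-PR KLS and 10.82 in WT KLS cells. The erythroid genes did not all fall, since Car2, Klf1 and Epor differed by -0.70, -0.16 and 0.30 log2. The monocyte and macrophage list (9 of 10 measured) overlapped, with sums of 1120 to 1661 in mCG-PR KLS and 1323 to 1709 in WT KLS cells. The part of these cells in the Zeb2 and Spi1 values was not tested. In sorted bulk RNA, a change in the share of cells that carry a transcript cannot be told apart from a change in its amount per cell.

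The C/EBP genes differed less. Cebpa, the starter of the granulocyte and monocyte programme, averaged 8.39 ± 0.14 log2 in mCG-PR KLS cells (SD, n = 5) and 8.28 ± 0.10 in WT KLS cells (SD, n = 4). That difference of 0.11 log2 had a 95% interval of -0.16 to 0.38. Cebpb, which serves emergency granulocyte production, averaged 6.36 ± 0.15 log2 in mCG-PR KLS and 6.17 ± 0.27 in WT KLS cells, a difference of 0.19 (interval -0.12 to 0.51). Cebpe had a difference of -0.25 log2 (interval -0.83 to 0.33), the 1 negative value among the members. Adjusted p-values of the 3 genes in limma were 0.756, 0.642 and 0.740.

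Cebpe had 1 mutant array far from the others. Its log2 values were 6.24 and 6.60 in mCG-PR KLS cells of 13 weeks and 6.50, 6.96 and 7.99 in those of 6 weeks, against 6.80, 7.06, 7.23 and 7.35 in WT KLS cells. The array at 7.99, replicate 2 of the 6-week group, was above every WT array, whereas 3 of the other 4 mCG-PR arrays were below all of them. Without that array the difference was -0.53 log2. Late neutrophil markers (8 of 9 measured) stood higher on the same array, with a summed intensity of 9973 against 4605 to 5741 on the other mCG-PR KLS arrays, and 8448 to 10777 on the WT KLS arrays. It also held the highest mast cell sum, 1735, and the highest Spi1 value. The part of neutrophil RNA in the Cebpe value was not tested.

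Gfi1, Runx1 and Myb showed no difference beyond their spread. Gfi1, a zinc-finger repressor that acts in granulocyte maturation, differed by 0.12 log2 (interval -0.24 to 0.48). Runx1, a core factor of definitive blood stem cells, differed by 0.20 log2 (interval -0.11 to 0.51). Myb, which sustains progenitor proliferation, differed by 0.04 log2 (interval -0.29 to 0.37). Their adjusted p-values in limma were 0.810, 0.615 and 0.940. Single probe sets were split in sign for each of these genes, with 8 of 17 positive for Gfi1, 9 of 12 for Runx1 and 8 of 19 for Myb.

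**Figure D2:**
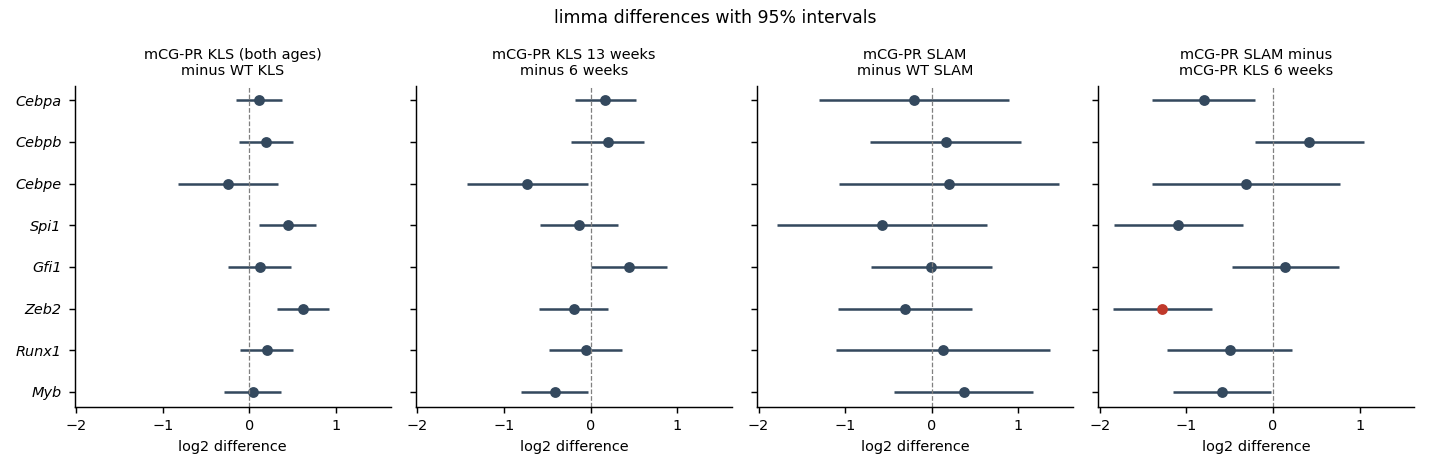
Each panel shows 1 comparison, with the limma log2 difference on the horizontal axis, the 8 genes down the page and 95% intervals as lines. Red marks an adjusted p below 0.05. Zeb2 is red in the panel of mCG-PR SLAM against 6-week mCG-PR KLS cells, and no other point is.

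Each age was then set against WT KLS cells separately. These comparisons share the 4 WT arrays. Again no member passed limma at 13 weeks, where 0.00946% of all genes did (1 gene), or at 6 weeks, where 0.0378% did (4 genes). At an unadjusted p of 0.05, 2 members lay beyond the threshold at each age, against 13.5% of all genes at 13 weeks and 12.6% at 6 weeks.

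Zeb2 differed from WT by 0.50 ± 0.18 log2 at 13 weeks (SE; limma adjusted p = 0.265) and by 0.69 ± 0.16 at 6 weeks (adjusted p = 0.132). Neither age overlapped the WT arrays, as was so for 14.8% of all genes in this direction at 13 weeks and 9.46% at 6 weeks. The median over all genes was 0.05 log2 at 13 weeks and 0.11 at 6 weeks. At 13 weeks the size rested on which of the 2 arrays was used, since it was 0.73 log2 without replicate 1 and 0.26 without replicate 2. Against the 2 WT mice of 13 weeks alone, Zeb2 at 13 weeks differed by 0.55 log2 (limma adjusted p = 0.299).

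Spi1 differed from WT by 0.36 log2 at 13 weeks (limma adjusted p = 0.438) and by 0.50 log2 at 6 weeks (adjusted p = 0.273). Only the 6-week arrays were free of overlap with WT. At 13 weeks the Spi1 value was 0.11 log2 without replicate 1 and 0.62 without replicate 2. At 6 weeks, 6 of 7 Spi1 probe sets and 13 of 13 Zeb2 probe sets were positive, and at 13 weeks 5 of 7 and 11 of 13 were.

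At 13 weeks Cebpe stood below WT. It differed by -0.69 ± 0.31 log2 (SE; unadjusted p = 0.0417, limma adjusted p = 0.350), with no overlap, as was so for 10.2% of all genes in this direction. The 4 Cebpe probe sets were split, with 2 higher and 2 lower than WT, from -0.75 to 0.42 log2. Over the alternatives the gene value ranged from -0.87 to -0.16 log2. At 6 weeks the Cebpe difference was 0.04 log2 (limma adjusted p = 0.967). Gfi1 differed by 0.39 log2 at 13 weeks (adjusted p = 0.397) and by -0.06 at 6 weeks (adjusted p = 0.915). Its 13-week arrays were at log2 6.90 and 7.48, so 1 of the 2 lay inside the WT range of 6.64 to 6.90. Of the 17 Gfi1 probe sets, 9 were higher and 8 lower than WT at 13 weeks. Over the alternatives that gene value ranged from 0.02 to 0.67 log2. Cebpa differed from WT by 0.21 log2 at 13 weeks (limma adjusted p = 0.568). It had no overlap there, as was so for 14.8% of all genes in this direction.

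The direct comparison of the 2 ages of mCG-PR KLS cells called 0 of the 8 members in limma, against 0.00946% of all genes (1 gene). At an unadjusted p of 0.05, 3 members lay beyond the threshold, against 12.1% of all genes. Cebpe averaged 6.42 ± 0.25 log2 at 13 weeks (SD, n = 2) and 7.15 ± 0.76 at 6 weeks (SD, n = 3), a difference of -0.73 (limma adjusted p = 0.382). It was -0.31 log2 without replicate 2 of the 6-week group. Of the 4 Cebpe probe sets, 2 were higher and 2 lower at 13 weeks, with a median of -0.03 log2. Gfi1 averaged 7.19 ± 0.41 log2 at 13 weeks and 6.74 ± 0.23 at 6 weeks, a difference of 0.45 (limma adjusted p = 0.398). Its 17 probe sets were split, with 9 higher and 8 lower at 13 weeks and a median of 0.01 log2. Over the alternatives the gene value ranged from 0.03 to 0.73 log2.

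Myb had the clearest separation by age. Its log2 values were 9.87 and 10.07 at 13 weeks, against 10.20, 10.38 and 10.57 at 6 weeks, so the ages did not overlap, as was so for 20.1% of all genes in this direction. The difference was -0.41 ± 0.18 log2 (SE; unadjusted p = 0.0385, limma adjusted p = 0.376). Of its 19 probe sets, 18 were lower at 13 weeks, and 9 of these had no overlap. They were read on the same 5 arrays, so they are not separate evidence. The WT KLS arrays, of 12 or 13 weeks, lay between 9.97 and 10.35 and overlapped both ages. Zeb2, Spi1, Runx1, Cebpa and Cebpb differed between the ages by -0.20, -0.13, -0.06, 0.17 and 0.20 log2, and every 95% interval held 0. Cebpb was also free of overlap between the ages, at log2 6.48 and 6.49 at 13 weeks against 6.11 to 6.42 at 6 weeks. Such a lack of overlap held in this direction for 10.7% of all genes.

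In SLAM cells the genotypes could not be told apart at any member. In mCG-PR against WT SLAM cells, limma called 0.00% of all genes and 0 members, and 0 members reached an unadjusted p of 0.05, as 6.25% of all genes did. With 2 mice a genotype, the 95% intervals were wide. Zeb2 was at log2 7.12 and 7.33 in mCG-PR SLAM cells, against 7.32 and 7.75 in WT SLAM cells, a difference of -0.31 (interval -1.08 to 0.47). Spi1 was at 6.28 and 7.52 in mCG-PR SLAM, against 7.25 and 7.69 in WT SLAM cells, a difference of -0.57 (interval -1.78 to 0.64). The SLAM interval of Spi1 contains its KLS difference of 0.44 log2. That of Zeb2 ends below its KLS difference of 0.61 log2, although it overlaps the KLS interval of 0.31 to 0.92. The 13 Zeb2 probe sets were split, with 6 higher and 7 lower in mCG-PR SLAM cells and a median of -0.03 log2. The mean of the probe sets in place of their median gave a Zeb2 difference of -0.07 log2 in SLAM cells. With 1 array left out at a time, the SLAM difference lay between -0.52 and -0.09 log2 for Zeb2. For Spi1 it was -1.19 log2 without mCG-PR SLAM replicate 1 and 0.05 without replicate 2. The 7 Spi1 probe sets were split, with 2 higher and 5 lower in mCG-PR than in WT SLAM cells.

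The other members overlapped between the SLAM genotypes as well. Cebpa was at log2 6.99 and 8.05 in mCG-PR SLAM and 7.51 and 7.93 in WT SLAM cells. Runx1 was at 7.83 and 7.88 in mCG-PR SLAM and 7.05 and 8.40 in WT SLAM cells. Both genes thus had 1 pair of mice of the same genotype that lay more than 1 log2 unit apart. The replicate SD of Cebpa was 0.57 log2 in SLAM and 0.11 in KLS cells, that of Spi1 was 0.66 in SLAM and 0.24 in KLS, and that of Runx1 was 0.68 in SLAM and 0.21 in KLS. Gfi1 was the exception, with 0.09 in SLAM and 0.23 in KLS cells. Differences of Cebpb, Cebpe, Gfi1 and Myb were 0.16, 0.19, -0.01 and 0.37 log2. Late neutrophil markers summed to 2743 and 7786 in mCG-PR SLAM and 9149 and 25597 in WT SLAM cells, and their part in these values was not tested.

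Whether the genotype difference itself differed between the populations was tested as an interaction, SLAM minus KLS. The KLS part took both mCG-PR ages together, with genotype and age partly mixed as above. No member passed limma, and 0.00% of all genes did. At an unadjusted p of 0.05 there were 2 members, against 7.82% of all genes. Zeb2 had an interaction of -0.92 ± 0.37 log2 (SE; unadjusted p = 0.0243, adjusted p = 0.550) and Spi1 of -1.01 ± 0.47 (unadjusted p = 0.0447, adjusted p = 0.621). Over the alternatives the Zeb2 interaction ranged from -1.14 to -0.51 log2. The Spi1 interaction rested on 1 SLAM mouse, since it was -1.64 log2 without mCG-PR SLAM replicate 1 and -0.39 without replicate 2. The median over all genes was -0.11 log2. The remaining 6 members lay between -0.31 and 0.45 log2.

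SLAM cells were also set against KLS cells within each genotype. In mutant mice, Zeb2 fell in SLAM cells. It averaged 7.23 ± 0.15 log2 in mCG-PR SLAM cells of 7 weeks (SD, n = 2) and 8.50 ± 0.14 in mCG-PR KLS cells of 6 weeks (SD, n = 3). The difference was -1.28 ± 0.27 log2 (SE; limma adjusted p = 0.00722), or 0.413-fold. It was -1.09 log2 relative to the median of all genes, which was itself -0.19. It was the 1 member called, in a comparison in which 13.1% of all genes were called and 12.3% of all genes were called lower, so a call of this kind was common. At an unadjusted p of 0.05, 4 members lay beyond the threshold, against 26.7% of all genes, and 5 members were lower with no overlap, against 35.1%.

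Of the 13 Zeb2 probe sets, 12 were lower in mCG-PR SLAM cells and 6 of these had no overlap, with differences over all 13 from -2.18 to 0.53 log2. The mean of the probe sets in place of their median gave a smaller difference, -0.79 log2, with a limma adjusted p of 0.0227. The call was lost under quantile normalisation (-0.91 log2, adjusted p = 0.0828). It was also lost without mCG-PR SLAM replicate 1 (-1.17 log2, adjusted p = 0.100) or replicate 2 (-1.38 log2, adjusted p = 0.0523), where 1 SLAM array was left. Both mCG-PR SLAM arrays were low in Y-linked genes, as was 1 of the 3 KLS arrays. Without that KLS array the difference was -1.19 log2 (adjusted p = 0.0171).

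Spi1 and Cebpa had large differences in the same comparison that did not pass. Spi1 differed by -1.09 ± 0.35 log2 (SE; limma adjusted p = 0.0519). The size rested mostly on 1 SLAM mouse, since it was -1.71 log2 without mCG-PR SLAM replicate 1 (adjusted p = 0.0405) and -0.47 without replicate 2 (adjusted p = 0.640). Of the 7 Spi1 probe sets, 5 were lower and 2 higher in mCG-PR SLAM cells, from -2.19 to 0.96 log2. Cebpa differed by -0.80 ± 0.28 log2 (adjusted p = 0.0720). Its 4 probe sets disagreed, with 1 at -2.79 and the other 3 between -0.19 and 0.43 log2, and its value was -0.27 log2 without mCG-PR SLAM replicate 1 (adjusted p = 0.745) and -1.33 without replicate 2 (adjusted p = 0.0370).

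The remaining members of that comparison gave smaller values. Myb averaged 9.80 ± 0.21 log2 in mCG-PR SLAM and 10.38 ± 0.19 in 6-week mCG-PR KLS cells, a difference of -0.59 (limma adjusted p = 0.167). Under quantile normalisation the Myb value was 0.01 log2. Runx1, Cebpe, Gfi1 and Cebpb differed by -0.50, -0.31, 0.14 and 0.42 log2. Summed markers of 4 other cell types separated these groups without overlap. Dendritic markers summed to 814 and 892 in mCG-PR SLAM cells against 2455 to 3361 in 6-week mCG-PR KLS cells. Flt3 on the dendritic list is also a marker of the sorted compartment itself. Mast cell and basophil markers summed to 130 and 213 in mCG-PR SLAM against 348 to 1735 in 6-week mCG-PR KLS cells, and T and NK cell markers (7 of 7 measured) to 374 and 400 in mCG-PR SLAM against 488 to 569 in 6-week mCG-PR KLS cells. Genes of the T and NK list disagreed, since Klrd1 changed by -2.85 log2 and Cd3e by 0.57. The erythroid sum (4 of 7 measured) ran the other way, at 4973 and 5308 in mCG-PR SLAM against 1984 to 2136 in 6-week mCG-PR KLS cells. Car2, Klf1 and Epor of that list changed by 0.61, 0.06 and -0.24 log2. The part of these cells in the Zeb2 value was not tested.

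In WT mice no member passed between SLAM and KLS cells, where limma called 3.12% of all genes. The SLAM mice were 6 weeks old and the KLS mice 12 or 13 weeks, so population and age cannot be told apart here. Myb averaged 9.43 ± 0.33 log2 in WT SLAM cells (SD, n = 2) and 10.18 ± 0.16 in WT KLS cells (SD, n = 4). The groups did not overlap, as was so for 22.3% of all genes in this direction, and the difference was -0.75 ± 0.26 log2 (SE; unadjusted p = 0.0111, adjusted p = 0.133). It was the 1 member at an unadjusted p of 0.05, against 17.8% of all genes. Zeb2 differed by -0.28 log2 (interval -0.84 to 0.29) and Spi1 by -0.02 (interval -0.75 to 0.70). Cebpa differed by -0.56 log2 (adjusted p = 0.305), and the probe set at -2.79 above stood at -2.11 here while the other 3 were between -0.08 and 0.43.

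The order of the group means therefore differed among the genes. Zeb2 was highest in mCG-PR KLS cells of 6 weeks (8.50), followed by those of 13 weeks (8.31), WT KLS (7.81), WT SLAM (7.54) and mCG-PR SLAM cells (7.23). In that order, neighbouring groups overlapped in all places but 1, between mCG-PR KLS cells of 13 weeks and WT KLS cells. Spi1 had the same order, with 7.99 and 7.86 in the 2 mCG-PR KLS groups, 7.49 in WT KLS, 7.47 in WT SLAM and 6.90 in mCG-PR SLAM cells. Neighbouring Spi1 groups overlapped in every place, and the means of WT KLS and WT SLAM cells were nearly equal. Cebpb had both SLAM groups on top, with 6.70 in mCG-PR SLAM, 6.55 in WT SLAM, 6.48 and 6.29 in mCG-PR KLS cells of 13 and 6 weeks and 6.17 in WT KLS cells, and its highest and lowest groups overlapped.

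**Figure D3:**
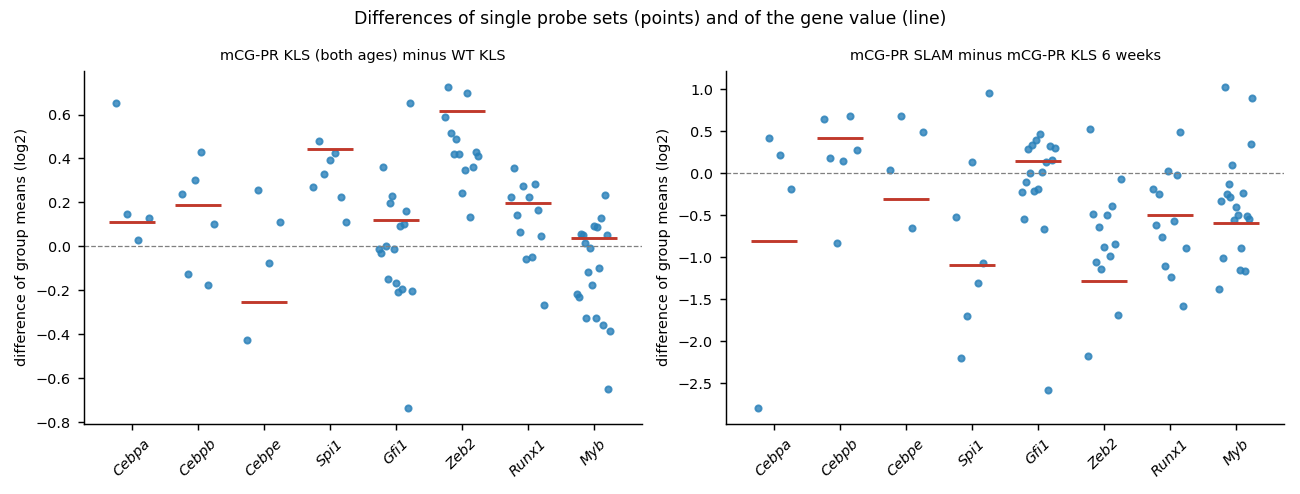
Points are single probe sets and red lines are gene values, with the difference of group means in log2 on the vertical axis and the 8 genes on the horizontal axis. All 13 Zeb2 and all 7 Spi1 points are above 0 in the left panel, and 12 of 13 Zeb2 points are below 0 in the right panel.

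Over all 13 arrays, Zeb2 had a Pearson correlation of 0.66 with Runx1, 0.65 with Myb, 0.64 with Cebpa and 0.56 with Spi1. Cebpb ran opposite to Spi1, at -0.62. The arrays share 2 sorted populations, so these values describe the layout of the groups as much as any pairing of genes. Among all 10575 tested genes, the 2 most alike to Zeb2 in pattern were Slc43a3, a membrane transporter (0.95), and Il7r, the interleukin-7 receptor of lymphoid progenitors (0.93). Il7r averaged log2 5.09 in mCG-PR SLAM and 5.62 in WT SLAM cells, and 8.19 in mCG-PR KLS and 6.82 in WT KLS cells.

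The most alike to Spi1 were Fgfr1op2 and Nt5c (both 0.95), and to Cebpa the endothelial and stem cell adhesion molecule Pecam1 (0.96) and Cnnm2 (0.95). Runx1 was followed most closely by Daam1 (0.95) and Bckdhb (0.92), and Myb by Sclt1 (0.96) and Iars2 (0.95). For Cebpb the genes were Pkd1 (0.91) and Prima1 (0.89), for Cebpe Sc5d and Aida (both 0.86), and for Gfi1 Sars2 (0.88) and Epcam (0.86). These are the highest of 10574 correlations for each member, so they are high by selection.

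The partners, relatives and targets of the members were taken from 4 lists. In mCG-PR against WT KLS cells with both ages together, limma called 0 genes of each list, against the 0.0851% of all genes given above. At an unadjusted p of 0.05, 9.73% of all genes lay higher and 2.37% lower. Of 11 tested C/EBP partners and regulators, 1 lay higher and 1 lower at an unadjusted p of 0.05, and the median was -0.03 log2. Nfil3, a bZIP factor of natural killer and dendritic cell development, differed by 0.88 log2 (limma adjusted p = 0.169). Hlf, a bZIP factor of stem cells, differed by -0.71 log2 (adjusted p = 0.237). Cebpg, a C/EBP without an activation domain, and the circadian factor Tef differed by 0.24 and -0.15 log2.

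Of 14 tested RUNX, ETS and MYB partners and relatives, 2 lay higher at an unadjusted p of 0.05, against 9.73% of all genes. The median of 0.09 log2 equalled that of all genes at 2 decimals. The 2 higher genes were Ets1, the lymphoid ETS factor, at 0.53 log2 (limma adjusted p = 0.254), and Mybl2, a cell cycle relative of Myb, at 0.44 log2 (adjusted p = 0.256). Runx2 and Erg differed by 0.28 and -0.23 log2.

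Of 25 tested lineage-choice factors, 7 lay higher and 0 lower at an unadjusted p of 0.05, while 9.73% of all genes lay higher and 2.37% lower. The median of the list was 0.03 log2. Irf8, required for monocyte and dendritic cell formation, averaged log2 7.76 ± 0.52 in mCG-PR KLS cells (SD, n = 5) and 6.55 ± 0.23 in WT KLS cells (SD, n = 4). That was a difference of 1.22 ± 0.22 log2 (SE; limma adjusted p = 0.0539). At 6 weeks alone Irf8 rose against WT, by 1.47 ± 0.22 log2 (adjusted p = 0.0433), as 1 of the 4 genes called there. Irf8 also stands on the dendritic marker list above. Klf4, a monocyte-promoting factor, averaged 7.81 ± 0.14 log2 in mCG-PR KLS and 7.13 ± 0.13 in WT KLS cells, a difference of 0.68 (adjusted p = 0.0587). Bcl6, a repressor in lymphoid and myeloid cells, and Tcf4, the E-protein of plasmacytoid dendritic cells, differed by 0.45 and 0.42 log2 (adjusted p = 0.203 and 0.257).

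Of 17 tested targets of C/EBP factors, PU.1 and Gfi1, 4 lay higher and 3 lower at an unadjusted p of 0.05. Of all genes, 9.73% lay higher and 2.37% lower. The median of the target list was 0.09 log2. Csf1r, the M-CSF receptor driven by PU.1, averaged 7.20 log2 in mCG-PR KLS and 6.42 in WT KLS cells, a difference of 0.77 (limma adjusted p = 0.152). Mpo, the primary granule peroxidase, differed by 0.78 log2 (adjusted p = 0.254), and Tyrobp, a myeloid signalling adaptor, by 0.63 (adjusted p = 0.286). Lyz2, the myeloid lysozyme, differed by -0.52 log2 (adjusted p = 0.265).

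**Figure D4:**
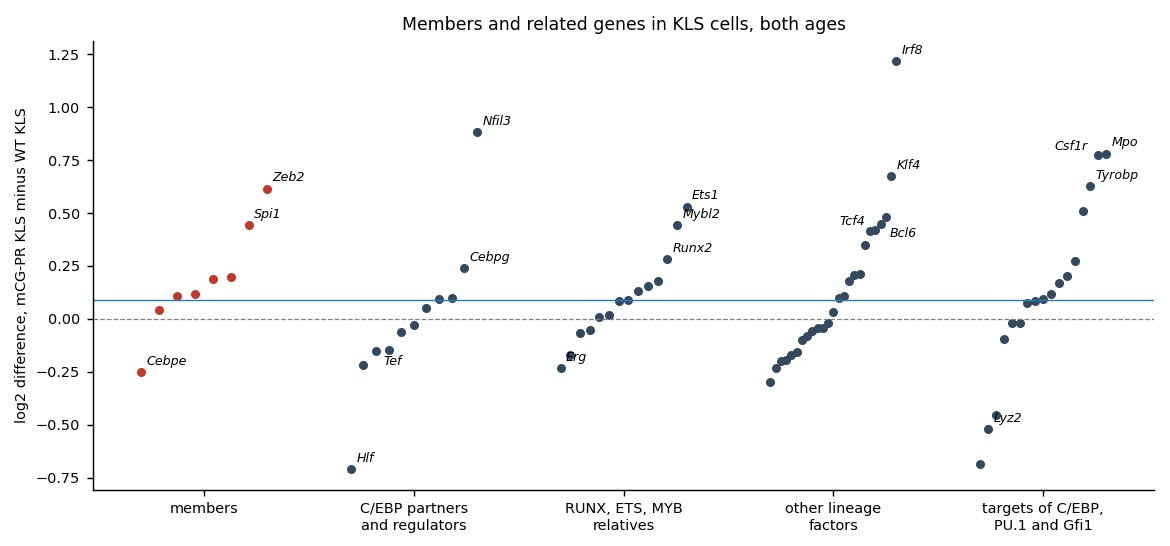
Points are genes, with the limma log2 difference of mCG-PR KLS cells (both ages) minus WT KLS cells on the vertical axis and the members and the 4 lists along the horizontal axis. The blue line is the median of all tested genes, 0.09, and Irf8 at 1.22 is the highest point.

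In mCG-PR SLAM against 6-week mCG-PR KLS cells, where 12.3% of all genes were called lower, 0 of 11, 4 of 14, 5 of 25 and 3 of 17 genes of the lists in the same order were called lower, and 0 higher. The called ETS, RUNX and MYB relatives were Elf1, Gabpa, Mybl2 and Runx3, with changes of -1.28, -1.13, -1.14 and -1.01 log2 (limma adjusted p from 0.00501 to 0.0280). The lineage factors were Irf8, Id2, Ikzf1, Myc and Tcf4, with changes of -1.93, -1.58, -1.50, -1.43 and -1.31 log2 (adjusted p from 0.00587 to 0.0181). Among the targets, Mpo changed by -4.98 log2, Tyrobp by -2.40 and Csf1r by -1.21 (adjusted p = 0.000526, 0.00792 and 0.0459). In mCG-PR against WT SLAM cells, limma called 0 genes of any list. The median of the target list there was -0.55 log2, beside -0.02 over all genes. The late neutrophil list, whose sums are given above, shares genes with the target list. The part of neutrophil RNA in this median was not tested.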

How the data were processed

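The authors deposited 1 linear intensity value per probe set and array (2.34 to 21748.2); per the submitters' processing notes these came from RMA with the mm9 build; the sources used here do not give its version or settings. Per the labels' protocols, cDNA was amplified from 20 ng of total RNA. No further scaling was applied. A gene's value was the median log2 intensity of its probe sets listed with that gene alone, for genes with at least 3 (15107 genes); those with a mean log2 value above the 30th percentile, 6.00, were tested (10575 genes). Groups came from the labels. KLS contrasts were fitted on the 9 KLS arrays, the SLAM contrast on the 4 SLAM arrays, and contrasts across populations on all 13 with weights by population, with limma 3.58.1 in R 4.3.3, two-sided. Benjamini-Hochberg adjustment ran across all 10575 genes, and an adjusted p below 0.05 was called. Errors are SE from limma unless marked SD. The script was tested on simulated data. The 4 lists, the members and the tests were chosen with earlier results of these data known. All members were named. From each list, up to 4 genes with the smallest p in mCG-PR against WT KLS cells of both ages and any called gene were named, and for each member the 2 genes most alike in pattern. Motifs and the promoter were chosen after the member values were known. Alternatives were other summaries, filters, normalisations, weights, subsets of WT arrays, a replicate block and leaving out each array.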

Additional observations from a re-analysis of the deposited data

Results flagged for a closer look

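Of 16 sets of 4 or 5 arrays examined for a value far from the others, 1 was marked: Runx1 in WT KLS cells, where replicate 1 stood at log2 8.52 and the other 3 arrays between 7.97 and 8.05. Chance marks about 1 in 20 such sets. Without that array the Runx1 difference of mCG-PR KLS cells (both ages) from WT KLS cells was 0.33 log2, against 0.20 with it, and neither passed limma.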

How the results depend on the processing

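None of the 8 members passed limma in the 5 genotype or age comparisons or the interaction under any alternative run. In WT SLAM against WT KLS cells, 1 member (Myb, adjusted p = 0.0262) passed with all 13 arrays and no weights, against 0 otherwise. In mCG-PR SLAM against 6-week mCG-PR KLS cells, the count of 1 became 0 under quantile normalisation and 3 with no weights (Zeb2, Spi1 and Cebpa), and 1 to 2 when single arrays were left out. There Spi1 passed without either 13-week mCG-PR KLS array (adjusted p = 0.0480 each) and without 6-week replicate 3 (0.0475), beside Zeb2. Over 1488 alternative values of the members, 1406 kept sign and side of the threshold, 3 lost a call, 8 gained one and 71 changed sign, the last all of uncalled values. The Zeb2 difference in mCG-PR against WT KLS cells of both ages ranged from 0.45 to 0.70 log2 (adjusted p 0.0701 to 0.547).

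Replicate numbers did not pair the arrays: deviations of same-numbered arrays correlated at -0.07 to 0.08 and those of others at -0.08 to 0.09. With the replicate block, the Zeb2 difference in KLS cells was 0.63 log2 (adjusted p = 0.191), and Zeb2 was still the 1 member called between mCG-PR SLAM and 6-week mCG-PR KLS cells (-1.20 log2, adjusted p = 0.0218).

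Counts of all called genes varied widely. They were 9 in mCG-PR KLS (both ages) against WT KLS cells (0 to 41 over the alternatives), 4 at 6 weeks (0 to 43), 1 at 13 weeks (0 to 22), 1 between the ages (0 to 17), 0 in SLAM cells (0 to 270), 330 in WT SLAM against WT KLS (94 to 1229), 1387 in mCG-PR SLAM against 6-week mCG-PR KLS (397 to 2394) and 0 for the interaction (0 to 112). The 270, 1229, 2394 and 112 came with all 13 arrays and no weights. With 2 arrays in 3 of the 5 groups, the number of arrays is the limit, and where an array was left out of such a group the lone array was assumed to vary like the others.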
